A study of Mus musculus with 2 samples.

Results

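The 10 genes described here encode the peroxisome proliferator-activated receptors (Ppara, Ppard and Pparg), the retinoid X receptors (Rxra, Rxrb and Rxrg), the thyroid hormone receptors (Thra and Thrb), the glucocorticoid receptor (Nr3c1) and the mineralocorticoid receptor (Nr3c2). They were taken by name, as 10 of 21887 mouse genes annotated as protein-coding on the autosomes, X and Y, and each was examined over its span and 5000 bp on either side. The series mapped H3R17me2a, the asymmetric dimethyl form of an arginine of histone H3, by ChIP-seq, in which an antibody to the mark pulls down chromatin fragments that are then sequenced. It holds 2 samples of 1 group, heart of wild type mice at P21 (21 days after birth), with no treatment named and no control or mutant group analysed here. The labels do not agree on the source: the tissue label and the extraction protocol give heart tissue, the source name gives a primary cardiac fibroblast, the series describes the hearts as neonatal, and the titles carry the name of Carm1 although the genotype is wild type. One peak file accompanies each sample, and these are referred to as list 1 and list 2. Whether they came from different mice is not stated.

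Nuclear receptors are transcription factors switched by small lipid-soluble ligands. PPARs and thyroid hormone receptors bind DNA as heterodimers with an RXR, commonly at repeats of the half-site AGGTCA, whereas the glucocorticoid and mineralocorticoid receptors pair with themselves at sites built on AGAACA. In heart muscle, Ppara and Ppard drive the genes of fatty acid oxidation, thyroid hormone acting mainly through Thra promotes the switch from the fetal to the adult myosin heavy chain, and glucocorticoids acting through Nr3c1 take part in maturation around birth. Pparg is best known from fat, Rxrg from skeletal muscle and brain, Thrb from liver and pituitary, and Nr3c2 from the kidney, while Rxrb is made in most tissues. Carm1, the enzyme that writes H3R17me2a, is a coactivator recruited by nuclear receptors.

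The lists held 21496 and 38012 peaks, with a median of 26.0 and 15.0 ChIP reads at the summit. List 1 had no peak with a −log10 p under 5, while 51.3% of the list 2 peaks lay below it. The samples were not used as replicates. Of 20878 list 1 peaks that overlapped a list 2 peak, 42.2% had their summit on the same base, and in 8660 such pairs the difference in reads had an SD of 0.298 in units of counting error, where independent draws would give 1. Over all shared pairs, including those with different summits, the SD was 1.15, and 72.3% of pairs with reads in both lists differed by at most 2 reads. Because the reads of the same-summit pairs differ by less than independent draws would, the lists were counted as 1 sample, although the labels give 2 samples. Values are given for both without a mean or SD, and no test between conditions was possible. A list 1 peak overlapping a list 2 peak is called shared. Among genes that define cell types, a peak of each list within 1000 bp of a gene end was present at 9 of 10 cardiomyocyte markers, 0 of 10 fibroblast markers, 1 of 8 endothelial, 1 of 7 immune and 0 of 6 adipocyte markers, against 38.6% of all protein-coding genes. The defining genes of the labelled fibroblast source, Col1a1, Pdgfra and Tcf21 among them, had no shared peak in their windows. Of all protein-coding genes, 48.7% had one.

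In 3 of the genes with several transcription starts, the mark was present at 1 start and absent from another, so the sequences at these starts are shown first. RefSeq sequences of the GRCm38.p6 build, which shares its coordinates with the mm10 build of the peak lists, run from 250 bp before to 50 bp after an annotated start and were matched by symbol for 8 of the 10 genes, with 14 starts in all. Thra and Nr3c1 had no entry. Capitals mark every match, on either strand, to the PPAR, RXR and thyroid receptor half-site AGGTCA, the corticosteroid receptor half-site AGAACA, the Sp1 motif GGGCGG, the box named for its letters CCAAT, or the core promoter motif TATAAA. Matches that touch or overlap run together. The pairs below give a start under a shared peak and a start of the same gene without one for Rxrg, Pparg and Thrb, followed by the unmarked first start of Rxra and the marked start of Nr3c2.
Rxrg, second start, marked (chr1:167618015-167618314, + strand): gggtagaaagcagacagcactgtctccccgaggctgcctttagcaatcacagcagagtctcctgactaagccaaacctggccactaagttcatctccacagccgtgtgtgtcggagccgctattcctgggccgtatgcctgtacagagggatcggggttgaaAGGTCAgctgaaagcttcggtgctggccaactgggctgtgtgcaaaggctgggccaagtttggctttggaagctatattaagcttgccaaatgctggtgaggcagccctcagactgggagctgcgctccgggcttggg
Rxrg, first start, no peak (chr1:167598112-167598411, + strand): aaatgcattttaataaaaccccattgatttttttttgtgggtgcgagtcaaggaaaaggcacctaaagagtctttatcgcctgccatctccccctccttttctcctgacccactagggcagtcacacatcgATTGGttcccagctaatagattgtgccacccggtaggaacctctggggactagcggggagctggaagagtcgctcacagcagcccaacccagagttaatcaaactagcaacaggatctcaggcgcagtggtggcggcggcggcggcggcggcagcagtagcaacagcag
Pparg, first start, marked (chr6:115360894-115361193, + strand): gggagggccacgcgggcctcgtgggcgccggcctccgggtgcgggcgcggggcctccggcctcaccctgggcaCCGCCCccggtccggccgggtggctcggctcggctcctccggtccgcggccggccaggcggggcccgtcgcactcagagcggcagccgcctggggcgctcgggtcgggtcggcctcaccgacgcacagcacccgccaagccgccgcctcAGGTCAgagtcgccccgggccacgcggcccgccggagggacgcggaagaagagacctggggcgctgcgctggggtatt
Pparg, last start, no peak (chr6:115421816-115422115, + strand): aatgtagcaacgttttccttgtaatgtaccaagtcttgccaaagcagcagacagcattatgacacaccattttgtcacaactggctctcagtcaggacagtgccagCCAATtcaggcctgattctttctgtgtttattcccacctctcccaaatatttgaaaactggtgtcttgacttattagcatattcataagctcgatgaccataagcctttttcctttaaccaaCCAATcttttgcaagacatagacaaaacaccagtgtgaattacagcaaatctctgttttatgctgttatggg
Thrb, first start, marked (chr14:17660710-17661009, + strand): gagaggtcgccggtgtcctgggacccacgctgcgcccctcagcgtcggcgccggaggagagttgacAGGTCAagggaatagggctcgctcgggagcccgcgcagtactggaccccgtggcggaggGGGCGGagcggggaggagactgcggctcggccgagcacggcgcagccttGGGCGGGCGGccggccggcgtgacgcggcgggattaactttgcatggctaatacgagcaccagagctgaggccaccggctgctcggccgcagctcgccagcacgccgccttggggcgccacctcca
Thrb, second start, no peak (chr14:17981394-17981693, + strand): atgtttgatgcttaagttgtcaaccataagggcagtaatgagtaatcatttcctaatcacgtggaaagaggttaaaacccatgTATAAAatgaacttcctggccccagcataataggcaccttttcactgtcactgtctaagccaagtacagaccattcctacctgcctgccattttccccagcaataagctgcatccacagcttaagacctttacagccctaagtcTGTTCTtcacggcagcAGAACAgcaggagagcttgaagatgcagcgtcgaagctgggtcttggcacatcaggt
Rxra, first start, no peak (chr2:27676951-27677250, + strand): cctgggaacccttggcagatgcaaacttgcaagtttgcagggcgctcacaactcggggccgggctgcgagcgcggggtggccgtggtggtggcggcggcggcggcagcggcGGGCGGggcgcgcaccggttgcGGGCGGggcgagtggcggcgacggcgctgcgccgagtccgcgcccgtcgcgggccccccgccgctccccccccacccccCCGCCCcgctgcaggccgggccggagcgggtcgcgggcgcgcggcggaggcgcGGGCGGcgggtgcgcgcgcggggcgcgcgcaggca
Nr3c2, only start, marked (chr8:76902080-76902379, + strand): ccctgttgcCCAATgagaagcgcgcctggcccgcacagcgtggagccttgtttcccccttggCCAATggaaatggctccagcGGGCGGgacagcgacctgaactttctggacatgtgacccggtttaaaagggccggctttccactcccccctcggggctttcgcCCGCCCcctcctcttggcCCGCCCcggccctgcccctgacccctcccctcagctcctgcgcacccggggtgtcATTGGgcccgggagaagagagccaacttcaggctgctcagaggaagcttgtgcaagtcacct

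A shared peak overlapped the 300 bp at an annotated start in 7 of the 8 genes with an entry, against 37.3% of the 17492 protein-coding genes in that table, and 8 of their 14 starts were covered, against 26.3% of all 32851 starts. Of 5 genes with 2 or more starts, Pparg, Rxrg and Thrb had the mark at some but not all of them, Rxrb at all and Rxra at none. That mixed state was found in 26.1% of 2761 protein-coding genes with 2 or more starts. The ratio of observed to expected CpG had a median of 0.868 over the 8 covered starts of these genes (0.373 to 1.05) and 0.361 over the 6 uncovered ones (0.0459 to 1.08). Over the whole table the medians were 0.828 with and 0.266 without a shared peak, so the receptor genes lay in the same order as the table. The exceptions lay in both directions: the first Rxra start had the highest ratio of the 14, at 1.08, and no peak in either list, whereas the second Rxrg start had a peak in both lists with a ratio of 0.373. GGGCGG occurred in 35.7% of all starts of the table, 69.7% of those with and 23.5% of those without a shared peak, and in 7 of the 8 marked starts of these genes, the exception being Rxrg. It was also present at 2 of the 6 unmarked starts, with 4 matches at the first of Rxra and 2 at the second of Pparg. AGGTCA, found in 16.3% of all starts, occurred at the marked starts of Pparg, Rxrg and Thrb and also at the unmarked second starts of Pparg and Rxra. AGAACA, found in 19% of all starts, 10.4% of those with and 22.0% of those without a shared peak, occurred only at the unmarked second start of Thrb among the 14. A match of letters is a description and was not tested as a binding site.

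All 10 genes had at least 1 shared peak in their window, against 48.7% of all protein-coding genes and 60.1% of those with a span of at least 25000 bp, a length that 9 of the 10 reach. Together they held 39 shared peaks, from 40 list 1 and 65 list 2 peaks. A gene end was taken as the 1000 bp on both sides of either end of the span, and 7 of the 10 genes had a peak of each list there, against 38.6% of all protein-coding genes and 45.3% of the longer ones. All 7 had it at the lower-coordinate end, which is the start side in each of the 8 genes whose strand the promoter table gives. Thra and Rxrb were marked at the upper end as well, and marks at both ends were found in 3.18% of all genes. Those upper-end peaks overlapped the neighbouring genes Nr1d1 and Col11a2, so they cannot be assigned to the receptors alone. A shared peak inside the span and away from both ends was present in 8 of 10 genes, against 15.5% of all and 28.6% of the longer genes. This class can include peaks at annotated starts within the span: the only Rxrg peak and the Nr3c2 peak at 4057 bp each overlapped one. For Thra and Nr3c1 this could not be told. Rxra, Rxrg and Nr3c1 had an intragenic peak and no gene-end peak of both lists, a combination found in 6.70% of all and 12.7% of the longer genes. The 10 genes are few and were chosen by name, so these shares describe them without a test.

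**Figure D1:**
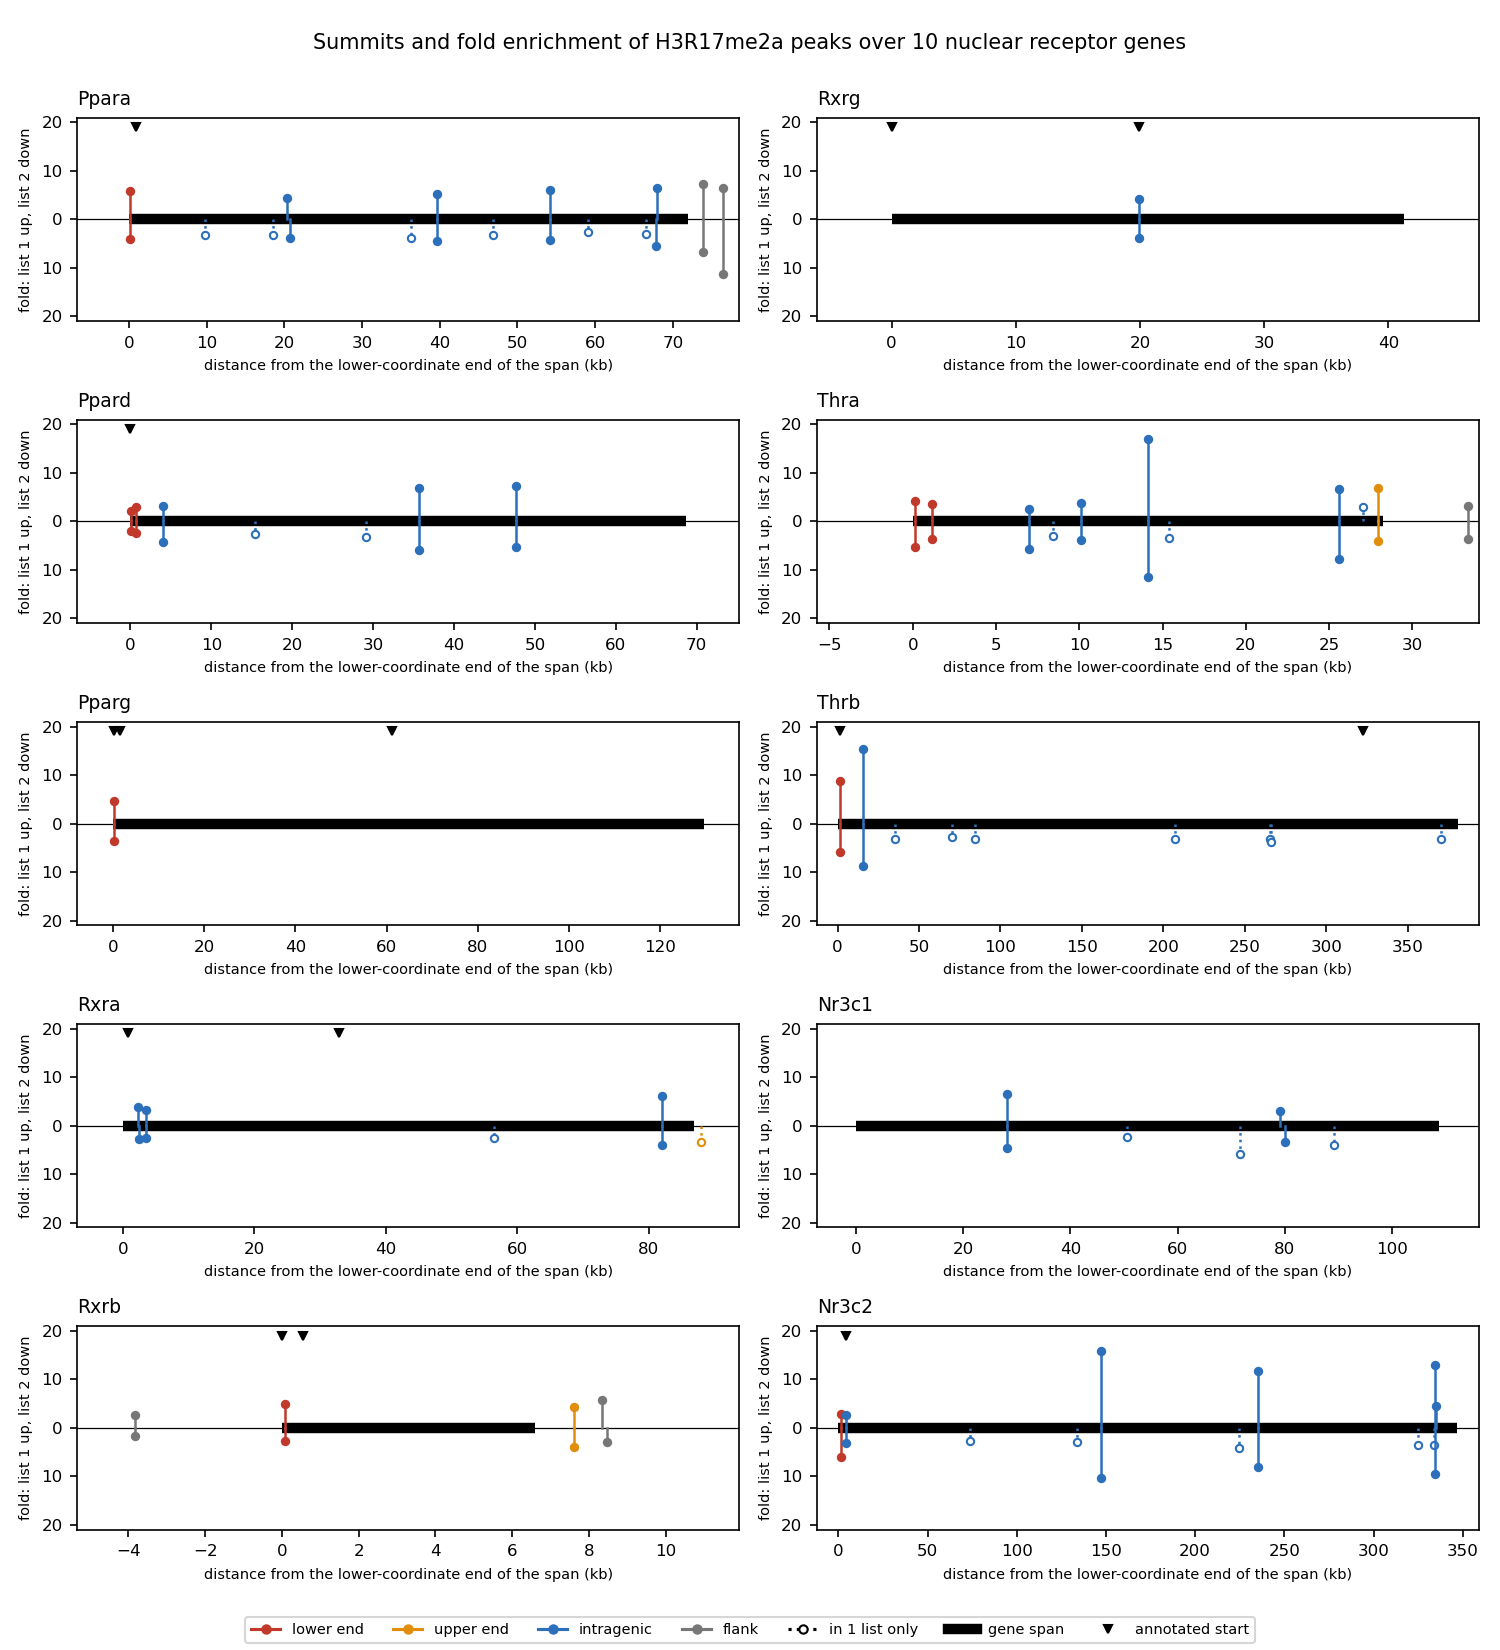
Summits of all H3R17me2a peaks over the 10 receptor genes, plotted as distance in kb from the lower-coordinate end of the span (x axis) against fold enrichment (y axis, list 1 upward, list 2 downward). Filled points are shared peaks, open points peaks of 1 list, black bars the gene spans and triangles annotated starts. Thra and Ppara carry the most shared peaks (8 and 7), Pparg and Rxrg 1 each, and the tallest stems lie inside Thra, Thrb and Nr3c2.

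The PPAR genes differed widely in the number of peaks. Ppara (chromosome 15, 85734910 to 85806851) had 7 shared peaks, Ppard (chromosome 17, 28232754 to 28301469) 5 and Pparg (chromosome 6, 115360879 to 115490404) 1. At the start of Ppara, the main fatty acid sensor of the heart, lay a peak of 1953 bp in list 1 and 2125 bp in list 2, with folds of 5.84 and 4.10 and 134 and 131 reads at the summit. Its width was the greatest of any gene-end peak among the 10 genes. Inside Ppara followed 4 narrower peaks of 238 to 815 bp in list 1, with fewer reads at the summit, 8 to 15, but list 1 folds of 4.48 to 6.53 on both sides of that at the start. Beyond its upper end lay 2 peaks that held the highest fold of the window in each list, with 7.22 and 6.66 at the first and 6.39 and 11.3 at the second, and both overlapped the neighbouring gene Cdpf1. These 2 therefore cannot be assigned to Ppara.

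Ppard, which drives fatty acid use in muscle, had a lower fold at its start than inside. The start peak (348 and 371 bp) had folds of 2.15 and 2.01, among the lowest 3.31% and 1.72% of the folds in its list, from 57 reads in each list over a list 1 background of 26.0. The intragenic peaks at 35680 and 47644 bp from the start had folds of 6.83 and 5.91 and of 7.41 and 5.18, from 14 or 15 reads over a list 1 background of 1.2 and 1.16. The start peak thus had more reads and a lower fold than either. At Pparg, the regulator of fat cell formation, the single shared peak was narrow (249 and 291 bp) with folds of 4.69 and 3.61 and 19 and 21 reads. Its summit lay 27 bp before the first annotated start in list 1. The starts 1470 and 61187 bp from the lower end of the span had no peak in either list, and none lay elsewhere in the 129526 bp of the gene. As background, Pparg is known to use separate starts for its widespread and its fat-restricted form, which the table does not name.

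The RXR genes, which encode the common heterodimer partners, differed from one another in arrangement. Rxra (chromosome 2, 27676445 to 27763319), the main RXR of heart muscle, had no gene-end peak of both lists, since the peak in its upper end window was in list 2 alone (208 bp, fold 3.34, 9 reads). Its 3 shared peaks were intragenic, at 2282, 3452 and 82000 bp from the lower end, with folds of 3.83 and 2.81, 3.18 and 2.52, and 6.12 and 3.90. The first of these lay 1526 bp past the first annotated start, so the mark was found downstream of that start and not on it. No shared peak of Rxra reached a −log10 p of 5 in both lists, and the same held for Pparg and for no other of the 10 genes.

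Rxrb (chromosome 17, 34031812 to 34038403) is the shortest of the genes, at 6592 bp, and lies between Slc39a7 and Col11a2. A peak of 1363 and 1112 bp covered both of its annotated starts over all 300 bp of each in list 1, with folds of 4.84 and 2.72 and 91 and 95 reads. It also reached the end of Slc39a7, a zinc transporter gene. The other 3 shared peaks of the Rxrb window overlapped H2-Ke6 or Col11a2, so that none of the 4 belonged to Rxrb alone. Rxrg (chromosome 1, 167598362 to 167639623) had 1 shared peak, of 404 and 579 bp, with folds of 4.17 and 3.81 and 24 and 23 reads. Its summit was on the same base in both lists, 19912 bp into the gene and 9 bp past the second annotated start, while the first start had no peak.

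The thyroid hormone receptor genes held 2 of the 3 highest list 1 folds. Thra (chromosome 11, 98740776 to 98769006) had 8 shared peaks in a span of 28231 bp, and 98.9% of all protein-coding genes had that number or fewer. Near its lower end were peaks of 246 and 316 bp (folds of 4.14 and 5.23) and of 1401 and 1461 bp (3.69 and 3.58). The intragenic peak at 14145 bp had folds of 17 and 11.4, the highest of the 39 in both lists, from 53 and 47 reads, over 913 and 1007 bp. A further 3 intragenic peaks lay at 6965, 10094 and 25594 bp, with list 1 folds of 2.63, 3.88 and 6.73 and list 2 folds of 5.62, 3.91 and 7.72. At its upper end Thra overlaps Nr1d1, the clock repressor Rev-erb alpha. The peak there (1333 and 1313 bp, folds 6.99 and 3.94) and the flanking one (2560 and 2727 bp, folds 3.11 and 3.65) both overlapped Nr1d1 and cannot be assigned to Thra alone.

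Thrb (chromosome 14, 17659225 to 18040097) is the longest gene of the set, with a span of 380873 bp, and had 2 shared peaks. The start peak (1560 and 1821 bp) had folds of 8.82 and 5.88 and 43 reads in both lists, with its summit on the same base, 62 bp before the first annotated start. It was the strongest of the gene-end peaks by list 1 fold. It also overlapped LOC115488350, annotated there as a protein-coding gene. A narrow peak of 431 and 506 bp, 15509 bp into the gene, had folds of 15.4 and 8.85 from 30 and 27 reads. The second start, 322419 bp into the gene, had no peak in either list. As background, Thrb makes a form found in pituitary and retina from its own start, and the table does not name the forms. A further 7 list 2 peaks within Thrb had no list 1 counterpart, with folds of at most 3.90 and at most 9 reads at the summit.

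The corticosteroid receptor genes were marked mostly inside their spans, which can also hold transcription starts. Nr3c1 (chromosome 18, 39410545 to 39519421) had no gene-end peak in either list. As no annotated start was available for Nr3c1, whether its intragenic peaks lie at a start could not be told. The widest of the 39 shared peaks lay inside Nr3c1, 2780 bp in list 1 and 3092 bp in list 2, with folds of only 3.00 and 3.34 and 74 reads in both lists. Its summit was 79080 bp from the lower end in list 1 and 970 bp further in list 2, so the position of the maximum within this wide peak was not settled by the lists. Of all shared peaks, 1.74% were wider than 2000 bp in list 1. The other Nr3c1 peak, at 28071 bp, was narrow (395 and 411 bp) with folds of 6.47 and 4.52. Another intragenic site, at 71681 bp, was in list 2 alone, with a fold of 5.76, 17 reads and a −log10 p of 8.0, and was the only one of the 27 unmatched list 2 peaks to reach 5.

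Nr3c2 (chromosome 8, 76898083 to 77245012) had 6 shared peaks, of which 3 had a list 1 fold above 10. They lay 146972, 235072 and 334567 bp into the gene, with folds of 15.9 and 10.4, 11.8 and 8.11, and 12.9 and 9.47. The reads at their summits were 31 and 32, 58 and 64, and 25 and 25, and their widths in list 1 were 413, 723 and 605 bp. None of these overlapped another gene of the table. At the annotated start, whose sequence is printed above, the peak (761 and 778 bp) held 175 and 178 reads but had folds of only 2.63 and 3.17. It lies 4057 bp into the RefSeq span and so counted as intragenic. The peak nearest to the lower end (1836 and 2077 bp, folds 2.88 and 5.94) overlapped Gm10649, a long non-coding RNA gene.

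**Figure D2:**
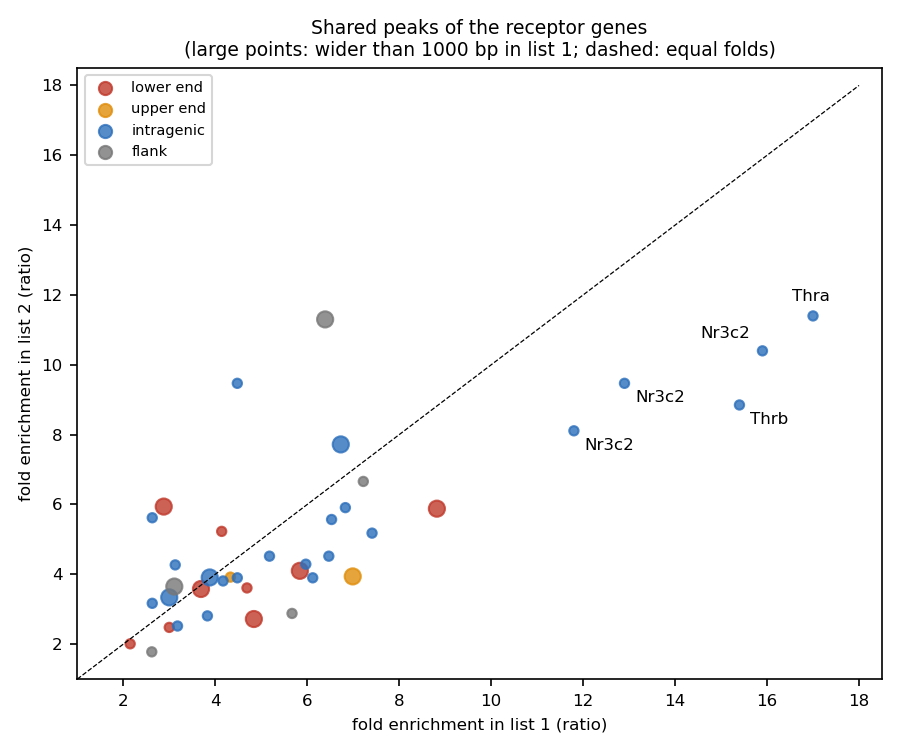
Fold enrichment of the 39 shared peaks in list 1 (x axis) and list 2 (y axis), coloured by position, with large points for peaks wider than 1000 bp in list 1. The 5 points beyond a list 1 fold of 10 are intragenic and narrow, at Thra (17), Nr3c2 (15.9, 12.9 and 11.8) and Thrb (15.4). The lists were counted as 1 sample, so closeness to the dashed line is not a measure of replication.

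Across the genes, fold and width went different ways. The 11 shared peaks at gene ends had a median list 1 fold of 4.33 and a median width of 1333 bp, whereas the 23 intragenic ones had 5.97 and 452 bp. Over all protein-coding genes the medians were 4.0 and 516 bp at ends and 5.43 and 442 bp inside, so the order by fold was the same, and the median width at ends was larger among the receptors. The 5 peaks with a list 1 fold of at least 10, a level chosen after the values were seen, were all intragenic, measured 413 to 913 bp and made up 12.8% of the 39, against 5.95% of all shared peaks. The list 1 reads showed the opposite order, with a median of 44.0 at the ends and 24.0 inside. The background recovered beneath them had medians of 6.0 and 1.45, and over all protein-coding genes 10.3 and 2.17. At the start of Nr3c2, 175 reads stood over a background of 65.9, and at its peak of fold 15.9, 31 reads stood over 1.01. Fold and reads therefore ranked these sites differently. The same background of 1.01 was recovered at peaks of Ppara, Thrb and Nr3c1, on other chromosomes, so whether it was measured locally is not known.

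**Figure D3:**
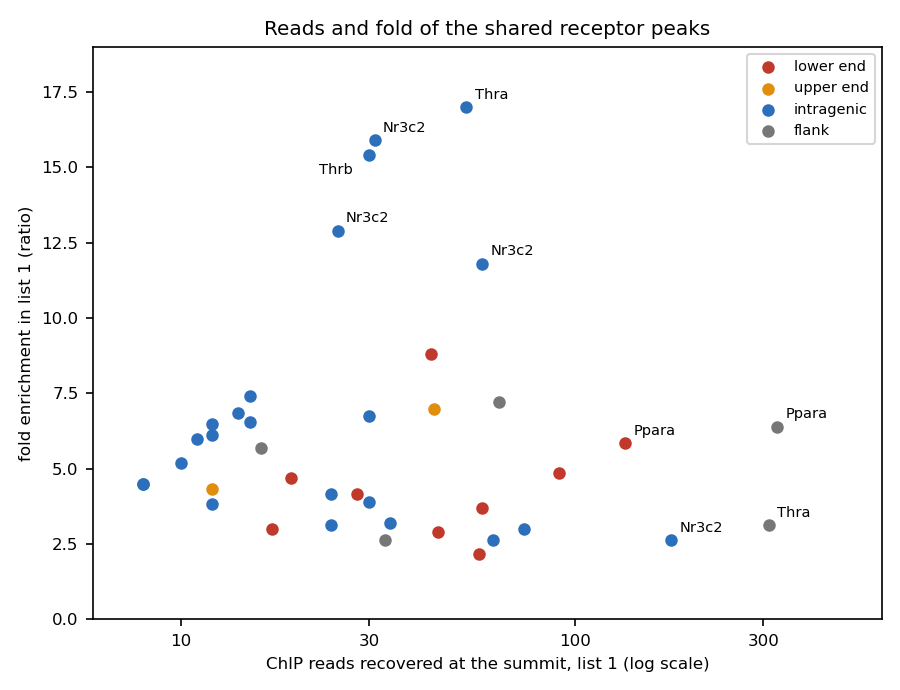
ChIP reads recovered at the summit in list 1 (x axis, log scale) against list 1 fold enrichment (y axis) for the shared peaks, coloured by position. The peaks of highest fold had 25 to 58 reads, while the 175 reads at the start of Nr3c2 gave a fold of 2.63. The points above 300 reads are flanking peaks at Cdpf1 and Nr1d1, next to Ppara and Thra.

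Paralogues known to be used in heart muscle were then set against the others. The heart-used set was Ppara, Ppard, Rxra, Thra and Nr3c1, and the other set Pparg, Rxrb, Rxrg, Thrb and Nr3c2. At gene ends 3 of 5 heart-used genes were marked in both lists against 4 of 5 others. The share was 38.6% of all protein-coding genes and 45.3% of those of at least 25000 bp. The order of the 2 sets depended on the setting. It was 3 against 2 with gene ends of 500 bp or without peaks near another coding gene's end. In the upper 50% of each list by fold it was 2 against 1, where 12.2% of all protein-coding genes were marked. With gene ends of 3000 bp or list 2 alone it was 4 against 4. The heart-used genes had more intragenic peaks, 16 against 7, in 5 of 5 genes against 3 of 5. Such a peak was present in 15.5% of all protein-coding genes and 28.6% of those of at least 25000 bp. With a −log10 p of at least 5 in both lists, the intragenic peaks of Rxra fell from 3 to 0 and those of Ppara from 4 to 2. The intragenic counts of all the other receptor genes were unchanged. The heart-used windows held 25 shared peaks, or 6.03 per 100 kb, and the others 14, or 1.47 per 100 kb. Spans summed to 365 kb for the heart-used genes and 905 kb for the others, in which Thrb and Nr3c2 have 380873 and 346930 bp. In these densities, gene length cannot be told apart from use in heart. Without Thra the heart-used density was 4.52, and without Rxrb that of the others was 1.07. Counting only peaks that overlapped no other gene and no other coding gene's end, the densities were 5.06 and 0.838. The ranges by gene overlapped, at 1.68 to 20.9 per 100 kb for the heart-used genes and 0.512 to 24.1 for the others, and the median over protein-coding genes of at least 25000 bp was 0.998.

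Within the families, heart-used genes had the higher density among the PPAR and thyroid hormone receptor genes, but not throughout the RXR or corticosteroid receptor genes. Per 100 kb of window, Ppara had 8.54 and Ppard 6.35 shared peaks against 0.717 at Pparg, and Thra had 20.9 against 0.512 at Thrb. Nr3c1 and Nr3c2 both had 1.68, from 2 and 6 shared peaks. Among the RXR genes the order differed, with 24.1 at the short Rxrb, 3.10 at Rxra and 1.95 at Rxrg. Every Rxrb peak in that count overlapped a neighbouring gene, so the place of Rxrb rests on peaks that cannot be assigned to it alone. The counts of Ppara, Thra, Thrb and Nr3c2 also include peaks over Cdpf1, Nr1d1, LOC115488350 and Gm10649, respectively. The peaks themselves were of similar strength, with median list 1 folds of 5.18 and 4.77 and list 2 folds of 4.27 and 4.90 in the heart-used and other sets. The strongest peaks occurred in both sets, up to 17 at Thra and 15.9 at Nr3c2. Members of a set are not replicates, so no test was made. Which genes count as used in heart is also a matter of choice. With Rxrb, Thrb and Nr3c2 moved to that set, gene-end peaks were found at 6 of 8 heart-used genes and 1 of 2 others. The share over all protein-coding genes was 38.6%.

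**Figure D4:**
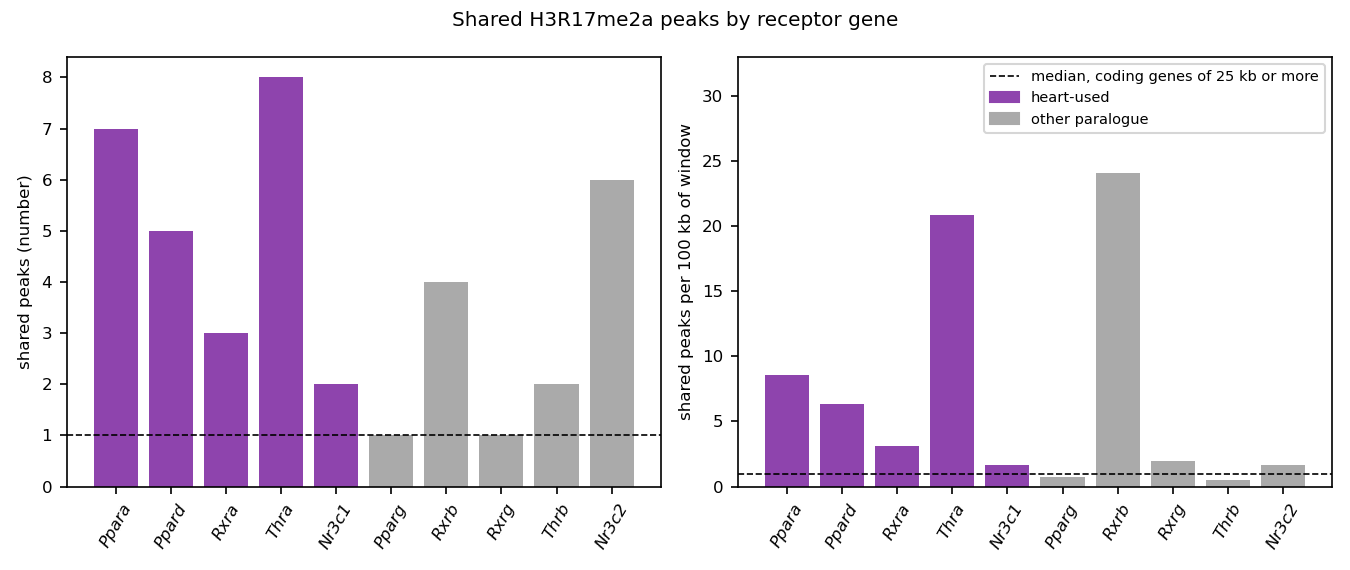
Number of shared peaks (left) and shared peaks per 100 kb of window (right) for each receptor gene, heart-used genes in purple and other paralogues in grey, with the median of protein-coding genes of at least 25 kb as a dashed line. Thra (8) and Ppara (7) lead by number, and per 100 kb Rxrb (24.1) and Thra (20.9), while Pparg (0.717) and Thrb (0.512) lie below the dashed line. All shared peaks of a window are counted, also those that overlap a neighbouring gene.

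The genes that work with these receptors or respond to them were examined in 7 lists, with 79 genes in all. Of these, 52 were marked at an end by each peak list, against 38.6% of all protein-coding genes. Of 11 other receptors that pair with RXR, 4 were marked at an end, close to the background share, among them Nr4a1, an orphan receptor induced by stress (4.26 and 4.74), and Rara, the main retinoic acid receptor of many tissues (4.33 and 2.81). Among other steroid receptors, the progesterone receptor gene Pgr and the estrogen receptor genes Esr1 and Esr2 had no shared peak in their windows. Nr3c2 had 6 and Nr3c1 had 2. A shared peak in the window was present at 48.7% of all protein-coding genes and 60.1% of those of at least 25000 bp, so its absence is common. Of 7 corepressor genes 6 were marked, with folds of 6.75 and 3.42 at the deacetylase gene Hdac3 and 3.89 and 2.98 at Ncor1, both at ends within 2000 bp of another gene. Tbl1x had an end peak in list 2 alone. All 9 chaperone genes of the steroid receptors were marked, led by Hsp90aa1 (6.17 and 3.96) and Hspa8 (4.36 and 3.74).

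Target genes were marked at ends in the majority as well. Against 38.6% of all protein-coding genes, 14 of 18 PPAR targets in muscle were marked, with the highest ranks at Angptl4, an inhibitor of lipoprotein lipase (7.93 and 6.30), and Ucp3, a mitochondrial carrier (6.67 and 6.50). Among those not marked were Cpt1a, Plin2 and Cd36, of which Cpt1a and Plin2 had an end peak in list 2 alone. Of 16 genes of thyroid hormone action and handling 11 were marked, led by the calcium pump inhibitor gene Pln (8.34 and 7.10) and the transporter gene Slc16a10 (10.1 and 6.06). The exceptions included the deiodinase genes Dio1, Dio2 and Dio3 and the lipogenic gene Thrsp. None of these had a shared peak in its window, as 48.7% of all protein-coding genes did. Of 15 corticosteroid targets and handling genes 9 were marked, led by the phosphatase gene Dusp1 (6.97 and 5.07) and Nfkbia, the inhibitor of NF-kB (3.95 and 3.70). No list was tested against the others.

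**Figure D5:**
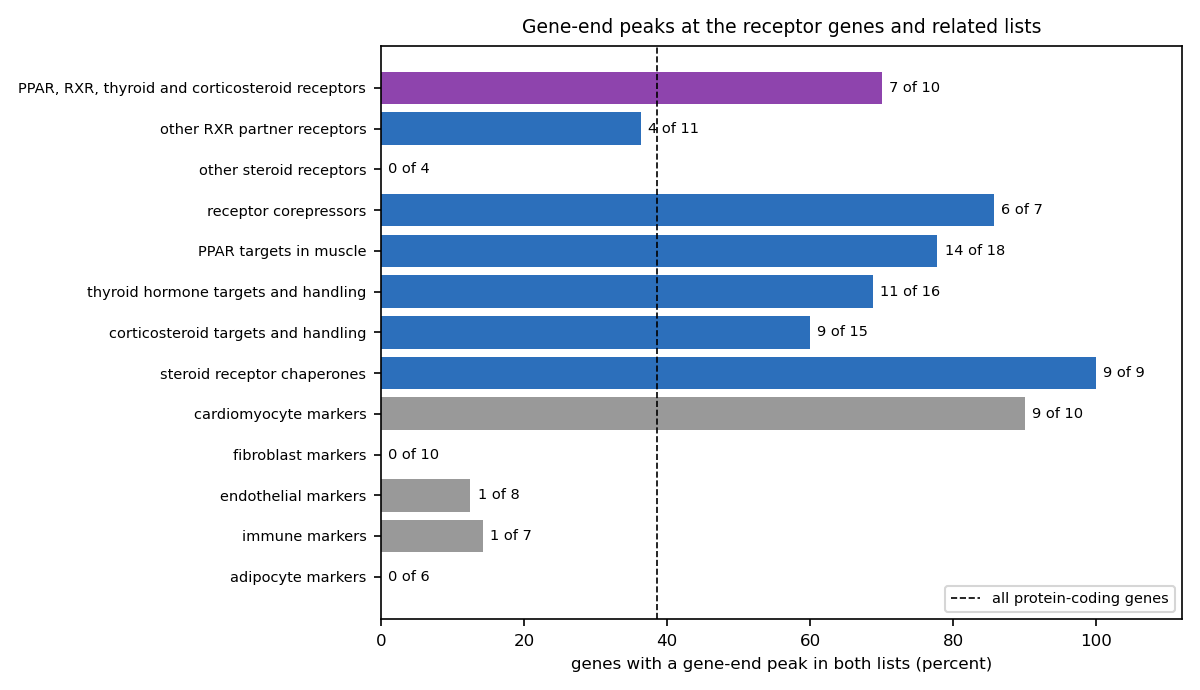
Share of genes with a gene-end peak in both lists (x axis, percent) for the receptors (purple), 7 lists of partner and target genes (blue) and 5 lists of cell type markers (grey), with counts beside the bars. The dashed line is the 38.6% of all protein-coding genes. The receptors stand at 7 of 10, chaperones at 9 of 9, and other steroid receptors, fibroblast and adipocyte markers at 0.

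The gene-end count of the receptors followed the stringency of the lists, as that of all genes did. Requiring a −log10 p of 5 or more from every peak made it 5 of 10, against 32.9% of all protein-coding genes, with the losses at Ppard and Pparg. At a −log10 q of at least 2 it was 6 of 10 (34.0%), with only the peaks of list 2 with the lowest p kept, as many as list 1 has, it was 7 of 10 (35.3%), and in the upper 50% of each list by fold it was 3 of 10 (12.2%), at Ppara, Thra and Thrb.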

How the data were processed

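Peak lists of H3R17me2a ChIP-seq from 2 heart samples of 1 group were analysed. Per the submitters' processing notes, FastQC and Bowtie2 were used with the mm10 build; the peak caller, control library, duplicate handling and filtering steps: not given in the sources used here. The deposited lists have 10 columns without a header. For each peak the authors deposited a fold over background (an unlogged ratio), a p-value and a q-value as −log10, and a score equal to the −log10 p times 10. All are the authors' values, read from the layout, and were used only within a list. One mitochondrial peak was left out (count of 1, list 1).

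The reads behind a summit were recovered as the whole number for which the fold, (reads + 1) / (background + 1), and the upper Poisson tail gave the deposited p within 0.001 on the −log10 scale. This succeeded in 99.15% of list 1 peaks and, with reads multiplied by 0.618, a factor found by scanning list 2 alone, in 99.24% of list 2 peaks. The functions were tested on simulated data first. Gene spans came from RefSeq for GRCm38.p6 and starts from its promoter table. Overlap meant at least 1 bp. Gene-end calls need a peak of each list in the 2 windows of 1000 bp on both sides of the ends. Where a list 1 peak overlapped several list 2 peaks, the one with the largest overlap was its partner, and 2 list 1 peaks of Nr3c2 share a partner. Percentiles of a fold are within its list. All 10 receptors are named, and of each related list the 2 marked genes with the lowest summed rank of their strongest gene-end fold, plus unmarked genes where 5 or fewer; some of these are not reported here. The members and lists were chosen with earlier results of these data known. Python 3.11.15, numpy 2.4.6, scipy 1.17.1, pandas 2.3.3 and matplotlib 3.10.9 were used.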

Additional observations from a re-analysis of the deposited data

How the results depend on the processing

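Of 75 values under alternative settings, 65 lay within 1.5 times the reported count. In the upper 50% of each list by fold, the receptors with a gene-end peak in both lists fell from 7 to 3, the shared peaks from 39 to 18, the other paralogues marked at an end from 4 to 1, the partner and target genes from 52 to 16 and the receptors with a peak over an annotated start from 7 to 2. Under that setting the share of all protein-coding genes with a gene-end peak in both lists fell from 38.6% to 12.2%. With 1 list left out, the peaks over the 10 windows numbered 40 in list 1 alone and 65 in list 2 alone, and the gene-end count ranged from 7 to 8, since Rxra gained its upper end in list 2. A gene end of 500 bp left 2 of the other paralogues marked against 3 heart-used genes, and so did leaving out peaks within 1000 bp of another coding gene's end, an alternative chosen after seeing the data. With Rxrb, Thrb and Nr3c2 counted as heart-used, gene-end peaks were found at 6 heart-used genes and 1 other. The count over annotated starts was itself added after seeing the data. No paired analysis was possible because both samples belong to 1 group. Depth limits the weak peaks: the shared ones of these genes rest on as few as 8 reads in list 1 and 9 in list 2, and the number of reads in each library is unknown.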

Other observations

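Some genes related to the receptors, named after their values were seen, carried many intragenic peaks. Zbtb16, a zinc finger gene induced by glucocorticoids (chromosome 9, 48651797 to 48836225), had 45 shared peaks in its window, 43 of them intragenic, and only 7 protein-coding genes had more. Its strongest gene-end folds were low, at 2.04 and 2.21. The density of shared peaks was 23.1 per 100 kb, against 20.9 at Thra.

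Genes without a gene-end peak of both lists were in some cases rich in peaks inside. Cd36, the fatty acid transporter and PPAR target (chromosome 5, 17781690 to 17888959), had 11 shared peaks of which 10 were intragenic. Rarb, a retinoic acid receptor gene of 651493 bp, had 9, all intragenic, or 1.36 per 100 kb. Among the receptors, Rxra, Rxrg and Nr3c1 also lacked a gene-end peak of both lists but had fewer intragenic peaks, with 3, 1 and 2. The single Rxrg peak lay at its second annotated start. Why peaks lie inside these genes was not tested.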
